A study of Mus musculus with 36 samples.

Results

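Macrophages clear dying cells with a set of receptors and soluble bridging proteins, and 8 of their genes were followed here: the TAM family receptors Mertk and Axl, the ligands Gas6 and Pros1, the integrin subunit Itgb5, the scavenger receptors Stab1 and Msr1, and the secreted protein Cd5l. Their rows were found by gene symbol, and all 8 were listed, each under 1 Ensembl identifier, among the 17539 genes of the normalized table. The RNA came from bone marrow-derived macrophages (BMDMs) of wild-type C57BL/6 mice (C57BL/6J in the study's methods) aged 8 to 10 weeks, cultured with M-CSF. By their labels the 36 samples formed 12 groups of 3: each of 3 pretreatments (DMSO as solvent, 10 µM SP600125 or 20 µM JNK-IN-8, both inhibitors of the kinase JNK) was combined with each of 4 states (no cytokine, IL4+IL13, IL4+IL13+TNF or TNF, every cytokine at 10 ng/ml and for 6 h). The 36 value columns of the table carried running numbers, 13 to 24 and 49 to 72, that match no sample label. They were therefore described as 1 unlabelled set, no column was given to a treatment, and every spread below mixes treatments and replicates.

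MERTK and AXL are receptor tyrosine kinases that do not bind a dying cell directly. GAS6 and protein S (the product of Pros1) attach to phosphatidylserine, a lipid that apoptotic cells expose on their surface, and link it to the receptor; GAS6 binds both receptors, while protein S acts through MERTK and not AXL. Integrin αvβ5, which holds the β5 chain made from Itgb5, takes up the same lipid through the bridging protein MFG-E8. Stabilin-1 (Stab1) binds phosphatidylserine itself, the class A scavenger receptor MSR1 binds modified lipoproteins and apoptotic cells, and CD5L, also called AIM, is a soluble protein of tissue macrophages that inhibits apoptosis and is induced by the oxysterol receptor LXR. MERTK is usually assigned to resting or tolerogenic macrophages and AXL to inflamed ones.

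The sequences 250 bases upstream of the RefSeq transcription start (GRCm38.p6) are shown for Mertk and Cd5l, and for Gas6 and Itgb5, the pair of members whose levels went together most closely below. The Mertk stretch is chr2:128698665-128698914 on the plus strand, the Cd5l stretch is chr3:87357631-87357880 on the plus strand, the Gas6 stretch is chr8:13494536-13494785 on the minus strand and the Itgb5 stretch is chr16:33829415-33829664 on the plus strand. Each is written 5′ to 3′ in lower case, and capitals mark a match on either strand to 1 of 5 short motifs, AP-1 (TGANTCA), STAT6 (TTC and GAA with any 4 bases between them), PU.1 (GAGGAAG), an LXR half-site (AGGTCA) or kappaB (GGGANTTCC).
Mertk: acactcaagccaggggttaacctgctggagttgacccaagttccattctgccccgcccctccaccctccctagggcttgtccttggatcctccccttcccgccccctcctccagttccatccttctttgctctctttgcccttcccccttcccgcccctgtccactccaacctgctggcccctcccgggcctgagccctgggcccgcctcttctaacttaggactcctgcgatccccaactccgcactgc
Cd5l: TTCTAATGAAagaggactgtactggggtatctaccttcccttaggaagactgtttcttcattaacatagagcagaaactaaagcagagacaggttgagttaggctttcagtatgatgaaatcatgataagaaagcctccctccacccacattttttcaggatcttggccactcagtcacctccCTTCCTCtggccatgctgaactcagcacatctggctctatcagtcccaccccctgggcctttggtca
Gas6: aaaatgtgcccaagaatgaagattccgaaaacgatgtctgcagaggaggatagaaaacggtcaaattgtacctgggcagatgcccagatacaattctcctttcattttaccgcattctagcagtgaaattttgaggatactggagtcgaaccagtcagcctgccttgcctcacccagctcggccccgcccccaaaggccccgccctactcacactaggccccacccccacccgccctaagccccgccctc
Itgb5: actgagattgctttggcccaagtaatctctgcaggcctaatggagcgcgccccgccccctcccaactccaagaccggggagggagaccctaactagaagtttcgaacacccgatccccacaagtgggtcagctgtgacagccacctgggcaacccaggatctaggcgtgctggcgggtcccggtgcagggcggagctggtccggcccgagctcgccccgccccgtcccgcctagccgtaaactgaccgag

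The Cd5l stretch held 2 matches, 1 to STAT6 starting 250 bases upstream and 1 to PU.1 starting 67 bases upstream. None of the 5 motifs was found in these windows of Mertk, Gas6, Itgb5 or Stab1, while Axl had 1 PU.1 match and Pros1 1 STAT6 match. Among all 32851 promoter windows of the same length, 5.85% held the STAT6 letters, 10.6% the PU.1 letters, 6.75% the AP-1 letters, 14% the LXR half-site and 1.43% the kappaB letters. The Cd5l stretch also stood out in composition among the 7 members with a sequence, with 46.8% G and C and 0 CpG dinucleotides, whereas the other 6 had 54.8% to 65.2% G and C and 5 to 18 CpG (the median of all windows was 52.4% G and C). These are descriptions of letters, and no binding was measured.

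Total raw counts ran from 19770573 to 38462661 per column, with 19820 to 22655 genes counted and 2.29% to 2.86% of counts from mitochondrial genes. Rank correlation with the total count was weak for all 8 members, from -0.26 for Pros1 to 0.15 for Axl, whereas Gas6 went against the number of genes counted (Spearman rho = -0.61, n = 36 columns) and the mitochondrial share (rho = -0.46). Axl went with the number of genes counted (0.42) and Itgb5 against it (-0.39). The part of the number of genes counted and of the mitochondrial share in the members' patterns was not tested. All 10 macrophage markers were listed, with a summed level of 286278 to 583324 normalized counts. By contrast, 6 of 7 stromal markers, 7 of 8 neutrophil markers, and all 4 B cell and all 4 T or NK cell markers were not listed, with at most 9 raw counts in any column. Stromal cells can express Gas6, Axl and Pros1, and the only listed stromal marker, Cxcl12, reached 33.3 normalized counts. Endothelial Kdr (42.2 to 2241), mast cell-associated Kit (5.81 to 1260) and the osteoclast-associated genes Mmp9 (2.04 to 710) and Ctsk (98.9 to 690.3) were the highest of the other markers, while Cdh5 and Cpa3, which define endothelial and mast cells, stayed at or under 18.9. Dendritic cell markers summed to 23.2 to 262. Some of these sums moved with members: that of the 4 listed osteoclast markers (215 to 1319) with Mertk (rho = -0.75), that of Kit and Cpa3, which is nearly all Kit, with Gas6 (0.76) and that of the dendritic cell markers with Itgb5 (-0.72). The dendritic cell sum was also at -0.60 with Mertk and -0.58 with Cd5l. The sum of Kdr and Cdh5 was at -0.67 with Pros1 and 0.56 with Cd5l. The osteoclast markers did not move as one, since Ctsk was at 0.28 with Mertk while Mmp9, Dcstamp and Acp5 were at -0.55, -0.63 and -0.46. The part of all these markers in the members' patterns was not tested. In bulk RNA, fewer cells of a type and less RNA per cell cannot be told apart.

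All values that follow are normalized read counts, that is, raw counts divided by a scale factor of the column. The receptor Mertk had the lowest level of the 8. It ran from 212 to 1322 over the 36 columns, with a median of 556, a 6.23-fold range. Its raw counts of 206 to 1355 put the spread expected from counting alone at 0.07 (SD, log2), against an observed SD of 0.90. The columns did not fill this range evenly: 15 lay between 212 and 313, and the next was at 507. Axl ran from 771 to 3895 with a median of 1208, a 5.05-fold range. Of its columns, 24 lay at or under 1636, 6 between 2012 and 2494, and 6 at 3116 or above. Tyro3, the third TAM receptor, was nearly silent, with a median of 4.45 and a highest value of 66.1.

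The ligand Gas6 varied most, from 2742 to 38364 with a median of 10429, a 13.99-fold range. Here 12 columns lay between 2742 and 3906 and the other 24 at 7148 or above, with no column between. The other ligand, Pros1, varied least of the 8, from 756 to 1572 with a median of 1012, a 2.08-fold range. Its largest step between neighbouring columns was 1.07-fold, so its columns formed a continuum. Gas6 exceeded Pros1 in 36 of 36 columns, by 2.76-fold to 46.6-fold in raw counts, a ratio that does not depend on how columns are scaled.

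Itgb5 ran from 1287 to 6057 with a median of 3516. As for Gas6, 12 columns were low, at 1287 to 1729, and 24 were at 3330 or above. Among the scavenger receptors, Msr1 ran from 1043 to 8649 with a median of 1812, an 8.30-fold range with 24 columns at or under 2318, 6 between 3434 and 4551, and 6 at 7358 or above. Stab1, the most counted member by its median (11654), ran from 8075 to 22600, only 2.80-fold. Stab1 shares exon bases with Nt5dc2 on the opposite strand in the GENCODE M1 annotation, and the sources do not say whether the counting used strand, so reads of the pair could not be told apart there. Cd5l ran from 1060 to 2750 with a median of 1948. Its 12 lowest columns lay between 1060 and 1271 and the other 24 at 1773 or above.

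**Figure D1:**
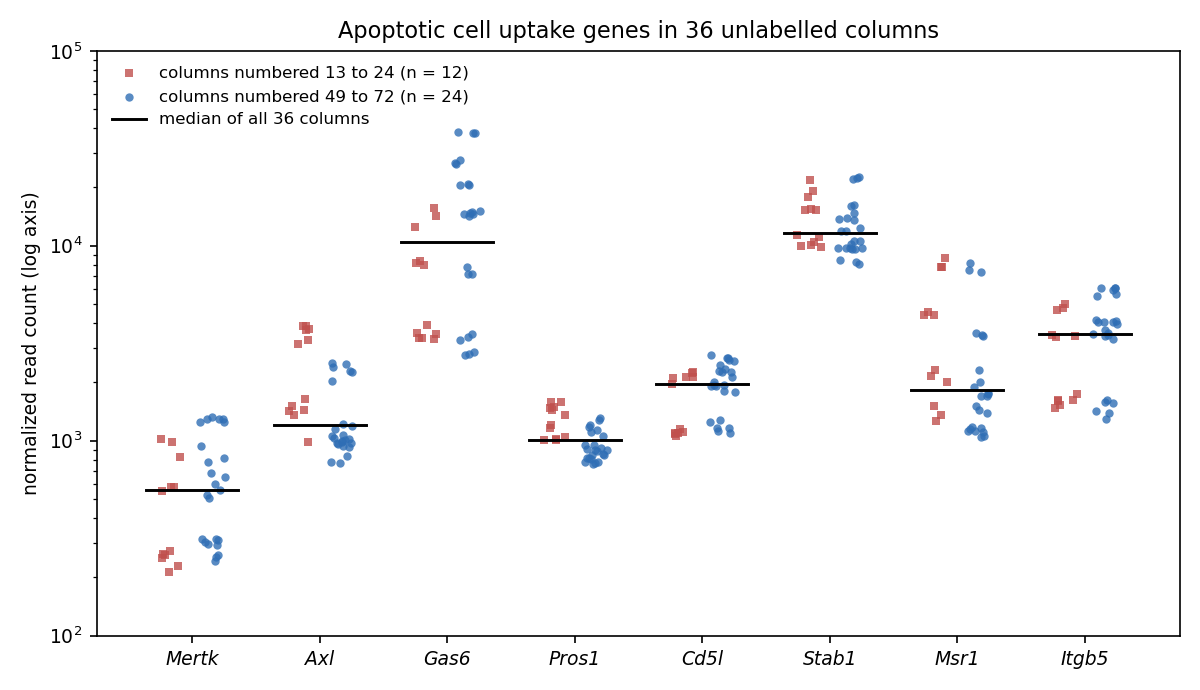
Normalized read count (log axis) of the 8 genes in each of the 36 columns. Each point is 1 column, red squares for columns numbered 13 to 24 and blue circles for 49 to 72, and black lines are medians over all 36; Gas6 spans 2742 to 38364, Pros1 only 756 to 1572, and Mertk, Gas6, Cd5l, Itgb5 and Msr1 each leave an empty stretch of at least 1.39-fold between low and high columns.

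The spread of these genes was set beside that of genes with a median level within 2-fold of theirs. Gas6 (SD 1.25 on the log2 scale) was more variable than 97.1% of 698 such genes, Msr1 (1.01) than 94.0%, Mertk (0.90) than 92.5%, Axl (0.75) than 89.3% and Itgb5 (0.76) than 87.9%. Cd5l (0.48) and Stab1 (0.43) stood at 75.9% and 64.9%, and Pros1 (0.32) at 61.0%. Among all genes, not matched by level, Cd5l stood at 53.8%, Stab1 at 49.6% and Pros1 at 37.6%. The other members then stood at 71.3% (Axl) to 90.1% (Gas6). In all 8, the observed SD was at least 7.03 times the SD from counting.

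Levels between genes were compared per kilobase of exon, with exon lengths from the GENCODE M1 annotation, which is not that of the count table. Gas6 was the highest of the 8 per kilobase in 30 of 36 columns and Msr1 in the other 6, while Mertk was the lowest in 28 and Axl in the other 8. Medians per kilobase were 4022 for Gas6, 1133 for Stab1, 1046 for Itgb5, 956 for Cd5l, 451 for Msr1, 248 for Pros1, 240.0 for Axl and 128 for Mertk. The ranges of each neighbouring pair in this order overlapped, so the order rests on medians. Within a column, Stab1 exceeded Cd5l per kilobase in 33 of 36.

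The balance of the TAM receptors shifted widely. The ratio of Mertk to Axl raw counts ran from 0.057 to 1.68, a 29.4-fold range around a median of 0.498, and Mertk exceeded Axl in 6 of 36 columns (8 of 36 per kilobase). This range is wider than that of either gene because the receptors moved in opposite directions: their rank correlation was -0.74 (Spearman rho, n = 36 columns; Pearson r = -0.78 on log2 values). Each correlation here describes columns that come from 12 groups of 3 and share their treatments, so none carries a p. The inverse order of Mertk and Axl was also seen among the 12 columns numbered 13 to 24 (rho = -0.70) and the 24 numbered 49 to 72 (rho = -0.76). It was weaker on either side of the empty stretch in Mertk, at -0.35 among its 15 low and -0.25 among its 21 high columns. All 6 columns with the highest Axl were among the 15 low in Mertk.

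Of the 28 pairs of members, 6 (21.4%) had a rho of at least 0.5 and 6 (21.4%) of -0.5 or lower. Correlations of this size are common in these data: among all pairs of 12321 genes with a median of at least 50, 15.1% reached 0.5 and 15% reached -0.5, and the first principal component held 54.1% of the variance. The members' shares are thus read only beside that background. The signs of the 12 pairs placed Gas6, Itgb5 and Mertk on one side and Axl and Msr1 on the other, with Cd5l joined to Gas6, Itgb5 and Stab1. Mertk and Gas6 themselves were not among the 12 pairs, with a rho of 0.45. Their rho was 0.78 within the lower run of column numbers and 0.15 within the upper. It was -0.72 among the 12 columns low in Gas6 and -0.30 among the other 24. Among the 15 columns low in Mertk it was -0.38, and among the other 21 it was 0.01. Mertk and Gas6 thus did not rise together on either side of these empty stretches.

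**Figure D2:**
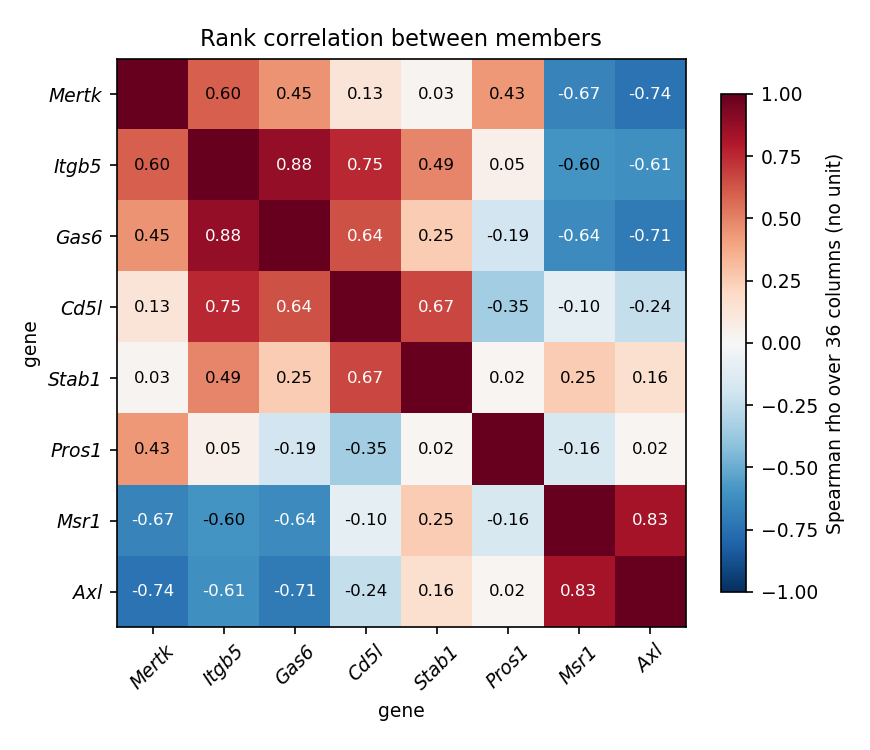
Spearman rho between the members over 36 columns, from -1 (blue) to 1 (red), with both axes listing the genes. Gas6 and Itgb5 reach 0.88 and Axl and Msr1 0.83, Mertk and Axl reach -0.74, and Mertk and Cd5l are close to 0 at 0.13.

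Gas6 and Itgb5 were the closest pair, with a rho of 0.88 over all columns, 0.97 within columns 13 to 24 and 0.83 within 49 to 72. The 12 columns low in Gas6 were the same 12 that were low in Itgb5, and the pair also kept its order within these 12 (rho = 0.88) and within the other 24 (rho = 0.62). All 12 were also among the 15 low in Mertk. Mertk and Itgb5 gave a rho of 0.60 (0.78 within columns 13 to 24 and 0.39 within 49 to 72), which on the low side of Mertk turned to -0.45 and on its high side was 0.12, so their relation over all columns rests on the separation between low and high columns.

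Axl and Msr1 were the other close pair, with a rho of 0.83 (0.74 and 0.75 within the 2 runs of column numbers). The 12 columns highest in Axl were the same 12 that were highest in Msr1, and the same 12 that were low in Gas6 and Itgb5. The order of Axl and Msr1 was looser on either side of this separation, with a rho of 0.21 within the 12 and 0.52 within the other 24, and of the 6 columns highest in each, 3 were shared. Both genes ran against Gas6 (rho = -0.71 for Axl and -0.64 for Msr1) and against Itgb5 (-0.61 and -0.60). Within the 24 columns high in Gas6, the relations to Gas6 were -0.16 for Axl and 0.01 for Msr1, and within the 12 low columns they were positive, at 0.24 and 0.76. The inverse order over all columns thus rests on the separation of the 12 from the 24.

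Cd5l followed another course. Its rho with Mertk was 0.13 over all columns, 0.19 within columns 13 to 24 and -0.00 within 49 to 72, so the levels of these 2 genes were close to unrelated in rank. Only 6 of the 12 columns low in Cd5l were among the 15 low in Mertk, and 6 of the 12 were among those low in Gas6 and Itgb5. Cd5l went with Itgb5 (rho = 0.75), Stab1 (0.67) and Gas6 (0.64). The relation to Itgb5 was 0.45 within columns 13 to 24 and 0.85 within 49 to 72, and that to Gas6 0.50 and 0.70. Among the 12 columns low in Cd5l, these relations were 0.24 for Itgb5 and -0.13 for Gas6, and among the other 24 they were 0.72 and 0.43. Among the 12 columns low in Gas6 and Itgb5 they were 0.67 and 0.53, and among the other 24 they were 0.93 and 0.71. The relation to Stab1 was 0.87 and 0.75 within the runs of column numbers, but -0.43 among the 12 columns low in Cd5l and 0.39 among the other 24. The 3 lowest columns of Stab1, at 8075 to 8403, were all among the 12 low in Cd5l, Gas6 and Itgb5.

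Pros1 showed why the runs of column numbers were kept apart. Its rho with Mertk was 0.43 over all columns but 0.88 within columns 13 to 24 and 0.77 within 49 to 72. The median of Pros1 was 1277 in the first run, where no column was under 1010, and 898 in the second, where none was over 1304. Mertk had a median of 410.3 in the first run and 579.7 in the second. The 2 genes therefore ranked columns alike inside a run while Pros1 was offset between the runs. The relations of Pros1 to Axl and Msr1 were 0.02 and -0.16 over all columns. They were -0.73 and -0.83 within columns 13 to 24, and -0.42 and -0.43 within 49 to 72. Other members were offset too: the median of Gas6 was 5913 in the first run against 14585 in the second, that of Axl 2376 against 1028 and that of Msr1 3367 against 1689. The sources do not say what the running numbers stand for, so a difference in handling and one in treatment cannot be told apart.

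**Figure D3:**
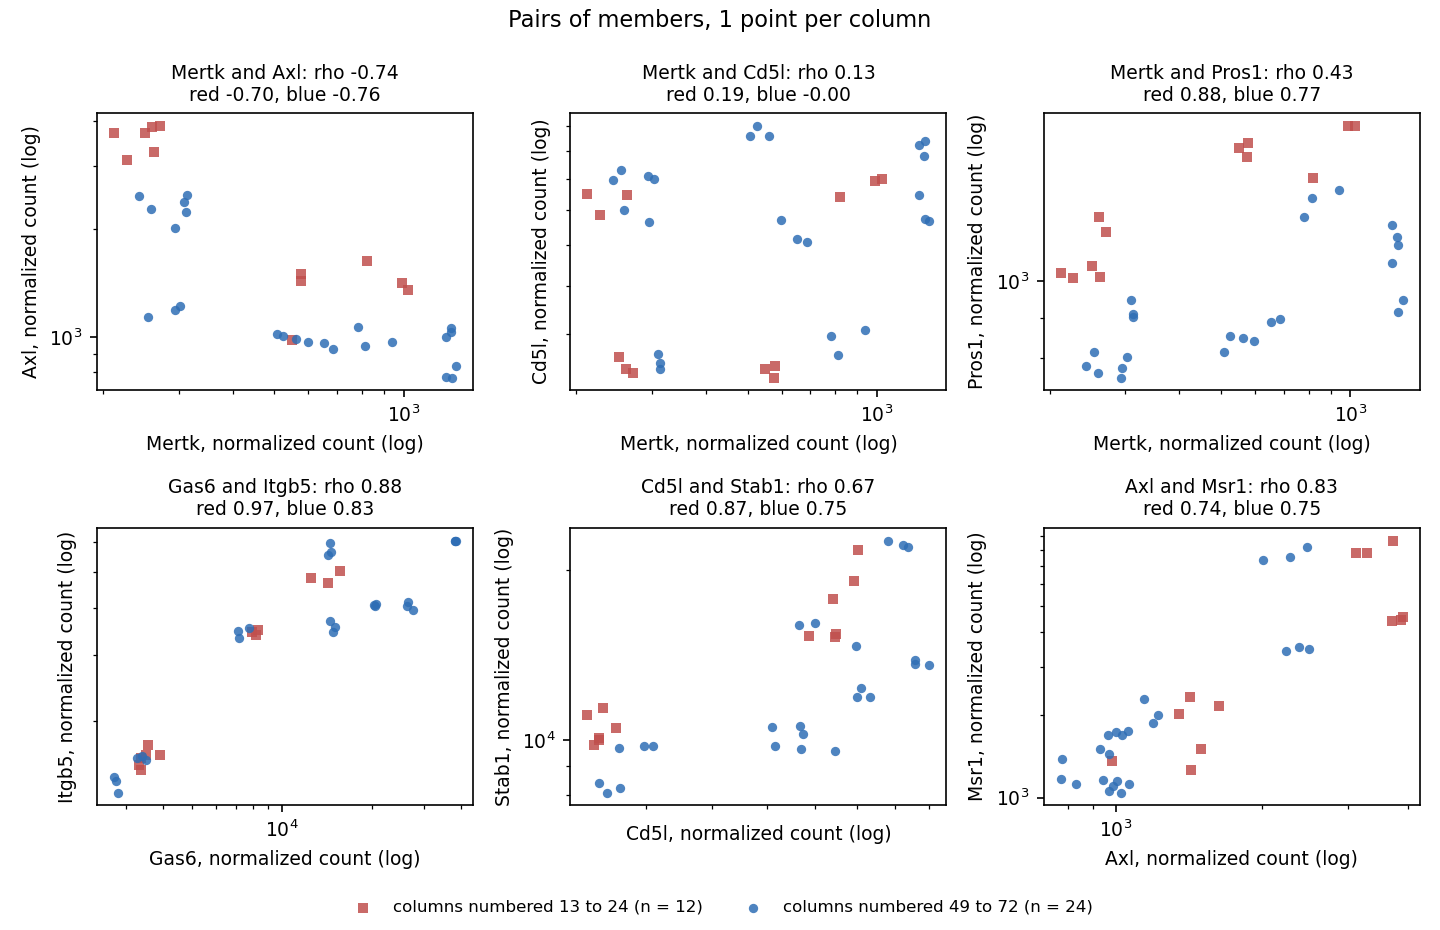
Each panel plots 1 pair of members, with normalized read counts on log axes and 1 point per column (red squares, columns 13 to 24; blue circles, columns 49 to 72). Mertk and Axl lie on a falling band (rho -0.74), Mertk and Cd5l on none (0.13), and Mertk and Pros1 on 2 parallel rising bands (0.88 and 0.77 within the runs, 0.43 together).

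The genes whose levels went most closely with each member were sought among 12320 others. For Mertk these were Osbpl11, an oxysterol-binding protein family gene (rho = 0.92, n = 36 columns), Gpx4, the glutathione peroxidase that protects lipids from peroxidation (0.90), and the pseudogene Gpx4-ps2 (0.89), which can share reads with Gpx4. Those most opposed to it were Psmb5, a proteasome subunit (-0.89), Tomm70a, a mitochondrial import receptor (-0.88), and Cul1, a ubiquitin ligase scaffold (-0.88). For Axl the closest were Tap2, a peptide transporter for MHC class I (0.95), Agrn (0.95) and Gca (0.93), and the most opposed were Eef2k (-0.95), Bach1, a repressor of haem-regulated genes (-0.93), and Plxnc1 (-0.93).

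For Gas6 the closest were Atp13a2, a lysosomal polyamine transporter (0.99), Padi2 (0.98) and Iqsec1 (0.98), and the most opposed were 1110002J07Rik (-0.97), Jarid2 (-0.96) and Vars (-0.95). For Pros1 they were Selplg, the P-selectin ligand (0.96), Prkar2a (0.94) and Acaa2 (0.93), against Slc7a11, the cystine transporter (-0.94), and Slc25a33 (-0.93). For Itgb5 they were Man1c1 (0.96), Cd93 (0.96) and Gm38317 (0.96), against Cdc42ep2 (-0.95), Phldb1 (-0.93) and Rcn1 (-0.93). Within each run of column numbers the relation of Gas6 to Atp13a2 was 0.96 and 0.99.

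For Cd5l the closest gene was Slc40a1 (0.95), which encodes ferroportin, the cellular iron exporter, and ran from 73.3 to 3827. Msrb1 (0.94) and Spag9 (0.92) came next, and Rnf19b (-0.93), the β-glucan receptor gene Clec7a (-0.93) and Clcn5 (-0.92) were most opposed. For Msr1 the closest were Dram1 (0.97), Cybb, the catalytic subunit of the phagocyte NADPH oxidase (0.96), and Marcksl1 (0.96), against Plxnc1 (-0.92), Gramd4 (-0.91) and Klf9 (-0.91). For Stab1 they were Trp53inp2 (0.94), Syne1 (0.93) and Tnrc6a (0.92), against Insl6 (-0.89), Aff1 (-0.88) and Socs2 (-0.88).

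Other receptors and bridging molecules of uptake were taken from a list of 33 genes that includes the members. Of these, 30 were listed (Havcr1, Megf10 and Adgrb1 were not, under these symbols) and 24 had a median of at least 50, of which 16 were not members. Mfge8, the ligand of the Itgb5 integrin (rho = 0.56), Itgb3 (0.55) and Cd300lf, a phosphatidylserine receptor (0.76), were the 3 of 16 with a rho of at least 0.5 with Mertk, where the share of all genes was 9.87%. The 4 of 16 at -0.5 or lower were C1qa (-0.77), C1qb (-0.50), Jmjd6 (-0.66) and Scarf1 (-0.58), against 10.4% of all genes. With Cd5l, Thbs1 (0.80), Colec12 (0.77) and Lrp1 (0.58) reached 0.5, 3 of 16 against 11.7% of all genes, and 0 of 16 reached -0.5, against 10.3%. The median rho of the list was 0.14 with Mertk and -0.11 with Cd5l. Over all genes the medians were -0.00 and 0.01. By level, the list ran from Timd4, with a median of 0, to Lrp1, with a median of 39834 before correction for its length.

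Of 24 genes of the engulfment machinery, 23 were listed and Gulp1 was at 0 in the count table. With Mertk, 3 of 23 reached 0.5 (Pik3c3, Uvrag and Atg7, at 0.61, 0.58 and 0.64) and 5 of 23 reached -0.5 (Crk, Rhog, Vav1, Atg5 and Cybb, from -0.60 to -0.73). Genes of autophagy and LC3-associated phagocytosis stood on both sides, since Atg5 (-0.68) and Cybb (-0.73) act there as do the first 3. With Cd5l, Elmo1 (0.76), Lipa, the lysosomal acid lipase (0.69), and Atg7 (0.58) reached 0.5, and Elmo2 (-0.65) and Dnase2a (-0.55) reached -0.5. Beside these, 9.87% of all genes reached 0.5 and 10.4% reached -0.5 with Mertk, and 11.7% and 10.3% with Cd5l. Elmo1 and Elmo2, which encode related partners of the exchange factor DOCK1, thus stood on opposite sides with respect to Cd5l.

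Among 18 regulators of uptake genes, all were listed and 17 had a median of at least 50. Rxra, the partner of LXR and PPAR receptors, gave the highest rho with Mertk (0.73) among the 2 of 17 that reached 0.5, and 4 of 17 reached -0.5: Adam17, the protease that sheds MERTK from the cell surface (-0.76), Nr1h3, which encodes LXRα (-0.70), Socs3 (-0.66) and Abca1, a cholesterol exporter (-0.63). Nr1h3, whose product is known to induce Mertk and Cd5l, thus ran against Mertk and was at -0.22 with Cd5l. With Cd5l, Apoe (0.80) and Ppard (0.65) reached 0.5, and 5 of 17 reached -0.5, among them Socs1 (-0.90), Abcg1 (-0.84), Adam10 (-0.81) and Klf4 (-0.61). These counts stand beside the shares of all genes at 0.5 and -0.5, 9.87% and 10.4% with Mertk and 11.7% and 10.3% with Cd5l. Among genes of do-not-eat-me signalling, 8 of 9 were listed (Siglecg was not) and 6 had a median of at least 50. The receptors Pirb (-0.64) and Lilrb4a (-0.62) reached -0.5 with Mertk and Cd47 (-0.60) with Cd5l, and 0 of 6 reached 0.5 with either gene, where the shares of all genes at 0.5 were 9.87% and 11.7%.

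**Figure D4:**
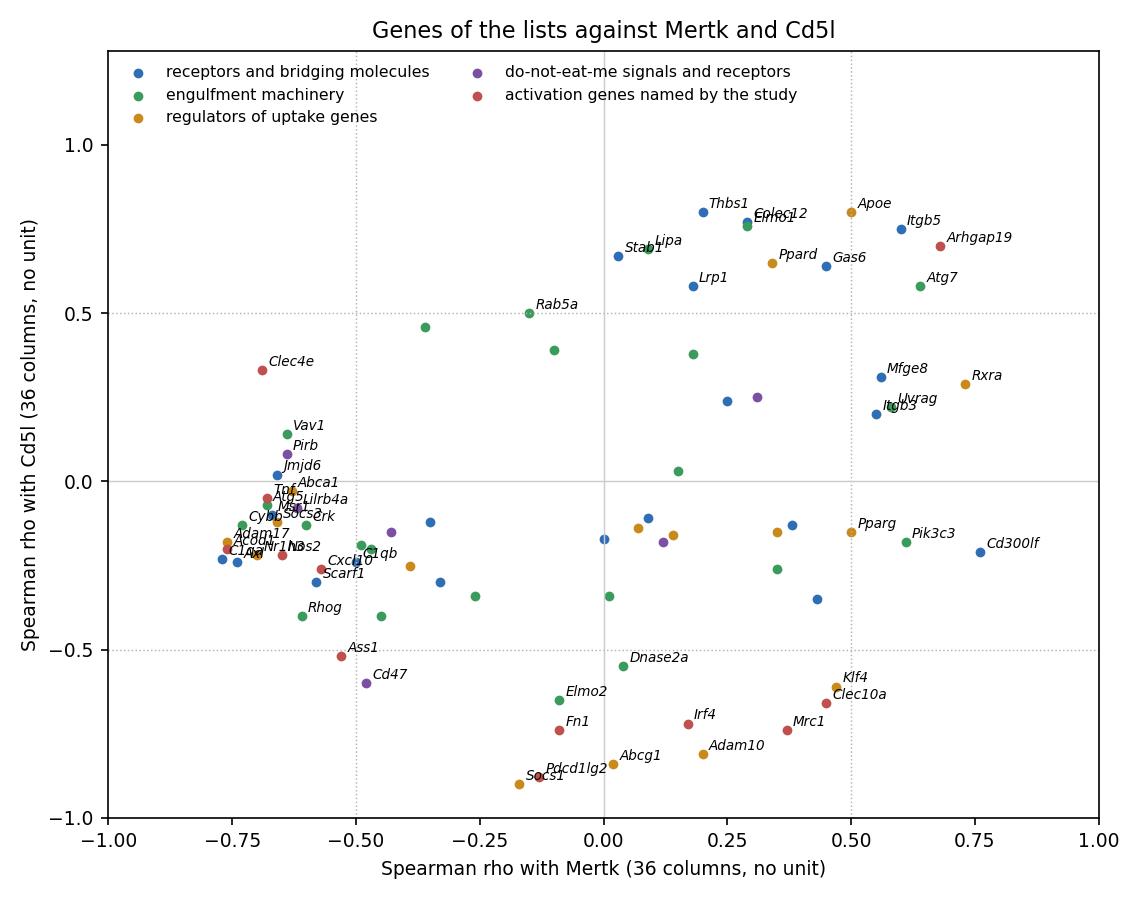
Spearman rho over 36 columns with Mertk (x axis) and with Cd5l (y axis) for the listed genes reported here that had a median of at least 50, coloured by list, with dotted lines at 0.5 and -0.5 and names for genes past a line. Adam17 (-0.76) and Cybb (-0.73) lie far to the left, Socs1 (-0.90) and Pdcd1lg2 (-0.88) at the bottom, and Thbs1 (0.80) and Apoe (0.80) at the top.

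The members were also set beside 17 activation genes that the study names, some of which it chose on libraries of this kind. Cd5l ran against Pdcd1lg2, which encodes PD-L2 (-0.88), Ccl8 (-0.83), Retnla (-0.80), Chil3 (-0.75), Mrc1 (-0.74), Mgl2 (-0.74), Fn1 (-0.74), Irf4 (-0.72) and Clec10a (-0.66), and Stab1 lay between -0.81 (Pdcd1lg2) and -0.41 (Fn1) with them. With Mertk these genes lay between -0.24 for Ccl8 and 0.45 for Clec10a. Mertk ran against the inflammatory genes Acod1 (-0.76), Clec4e (-0.69), Tnf (-0.68), Nos2 (-0.65), Cxcl10 (-0.57) and Ass1 (-0.53). With Cd5l, Ass1 was at -0.52 and the other 5 lay between -0.26 and 0.33. Axl and Msr1 went with Tnf (0.91 and 0.93), Cxcl10 (0.86 and 0.87), Acod1 (0.79 and 0.91) and Ass1 (0.72 and 0.64). Their values were 0.54 and 0.69 with Nos2 and 0.34 and 0.54 with Clec4e. Retnla had a median of 0 normalized counts and Chil3 and Ccl8 medians of 5.41 and 24.1, so ranks among their low columns carry counting noise. Of the 12 with a median of at least 50, 6 reached -0.5 with Mertk and 6 with Cd5l, and 1 reached 0.5 with each, beside 10.4% and 10.3% of all genes at -0.5 and 9.87% and 11.7% at 0.5. Arhgap19 was the 1 gene of the 17 that went with both Mertk (0.68) and Cd5l (0.70), and it went most closely with Itgb5 (0.94).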

How the data were processed

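Messenger RNA of 36 BMDM samples was sequenced. Per the submitters' processing notes, FastQC 0.7.11, STAR 2.7.4a, Subread 2.0.1 with featureCounts, and DESeq2 1.30.1 were used with the GRCm38 build, in roles that the notes do not spell out. The authors deposited a table of raw read counts and a table of normalized read counts (a signal, not whole numbers). The deposited signal of each gene, multiplied by 1 factor per column (0.729 to 1.61), returned its raw count to within 7.2e-05.

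The 36 value columns of each table, 72 in all, were matched to no sample, so no groups were tested. Members were taken by symbol. Members and lists were chosen with earlier results of these data known, and the thresholds of 0.5 for rho and of the widest gap were set after seeing values. Spearman rho was computed in Python 3.11.15 with numpy 2.4.6 and tested on simulated data; log2 values used a pseudocount of 1. For each member, the 3 genes with the highest and the 3 with the lowest rho were named, among genes with a symbol and a median of at least 50. Some genes that this rule or the lists hold are not reported here. Alternatives used CPM and TMM scaling (edgeR 4.0.16). Counting error was taken as Poisson.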

Additional observations from a re-analysis of the deposited data

How the results depend on the processing

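The number of member pairs with an absolute rho of at least 0.5 was 12 of 28, and 12 or 13 with Pearson correlation, CPM, TMM scaling, other pseudocounts, without the 2 farthest columns, or given the total count. It was 18 within columns 13 to 24 and 12 within 49 to 72, an alternative chosen after seeing the data. None of the 12 pairs changed sign under any of these. On 1 side of a member's widest gap some did: among the 12 columns low in Itgb5, Msr1 and Itgb5 were at 0.82. The rho itself shifted in 18 of the 28 pairs within columns 13 to 24 and in 7 within 49 to 72. Within columns 13 to 24, the relation of Gas6 to Pros1, which is not among the 12, went from -0.19 to 0.73. Axl and Pros1, also not among the 12, went from 0.02 to -0.73, and Pros1 and Msr1 from -0.16 to -0.83. Pearson r on log2 values shifted 4 pairs, among them these 3: Axl and Itgb5 went from -0.61 to -0.84, Msr1 and Itgb5 from -0.60 to -0.82, and Cd5l and Itgb5 from 0.75 to 0.55. The cause was not tested. Leaving out any 1 column kept Mertk with Axl between -0.76 and -0.72 and Mertk with Cd5l between 0.08 and 0.18. The genes named beside a member depended on the measure: of the most opposed, Pearson r kept 0 of 3 for Mertk, Cd5l, Stab1 and Itgb5, and of the closest it kept 3 of 3 for Mertk, 1 for Axl and 2 for each of the other 6. No paired analysis was possible because the columns carry no replicate number. Without labels, replicate error and treatment effects cannot be told apart.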

Other observations

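Levels of Gas6, Itgb5, Mertk, Cd5l and Msr1 fell into separate clusters, and they are given as values, since the columns have no labels. For Gas6, the 12 low columns were at 2742, 2783, 2835, 3271, 3328, 3374, 3382, 3394, 3508, 3509, 3554 and 3906 normalized counts, and the 24 above the 1.83-fold step were at 7148, 7196, 7754, 7919, 8176, 8335, 12524, 14262, 14264, 14492, 14538, 14633, 14819, 15029, 15637, 20416, 20537, 20641, 26215, 26531, 27447, 37994, 38078 and 38364. Many of these lie in tight sets of similar value, for instance 3 columns between 37994 and 38364.

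For Itgb5, the 12 low columns, which were the same columns, were at 1287, 1380, 1415, 1477, 1526, 1569, 1588, 1589, 1612, 1621, 1624 and 1729, and the 24 above the 1.93-fold step were at 3330, 3386, 3447, 3448, 3470, 3504, 3528, 3559, 3704, 3955, 4044, 4051, 4078, 4093, 4157, 4678, 4816, 5009, 5548, 5628, 5952, 6034, 6035 and 6057. The range within the low cluster was narrower than the step for both genes.

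For Mertk, the 15 low columns were at 212, 227, 243, 251, 254, 259, 260, 262, 271, 293, 294, 303, 309, 313 and 313, and the 21 above the 1.62-fold step were at 507, 525, 550, 562, 575, 578, 598, 653, 686, 781, 813, 820, 940, 989, 1025, 1250, 1251, 1285, 1289, 1293 and 1322. The high cluster spread more than the low one and held a group of 6 columns at 1250 to 1322.

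For Cd5l, the 12 low columns were at 1060, 1080, 1096, 1096, 1097, 1108, 1121, 1149, 1157, 1161, 1240 and 1271, and the 24 above the 1.39-fold step were at 1773, 1789, 1911, 1917, 1924, 1932, 1964, 1997, 2101, 2112, 2115, 2121, 2227, 2242, 2248, 2251, 2271, 2329, 2450, 2555, 2591, 2641, 2643 and 2750. This set of 12 shared 6 columns with the set low in Gas6, so at least these 2 genes divided the columns along different lines.

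For Msr1, the 24 low columns were at 1043, 1055, 1105, 1119, 1122, 1150, 1158, 1172, 1261, 1354, 1388, 1437, 1500, 1506, 1687, 1690, 1735, 1748, 1875, 2004, 2011, 2150, 2292 and 2318. The 12 above a 1.48-fold step, which were the columns low in Gas6 and Itgb5, were at 3434, 3476, 3553, 4416, 4422, 4551, 7358, 7531, 7769, 7794, 8189 and 8649, with a further step of 1.62-fold between 4551 and 7358. Axl had smaller steps of 1.23-fold, below the same 12 columns, and 1.25-fold, below its 6 highest.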
